A study of Mus musculus and Homo sapiens with 22 samples.

Results

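The 2-cell-like state genes Zscan4a, Zscan4c, Zscan4d, Zscan4f, Tcstv1, Tcstv3 and Zfp352 were followed in mouse embryonic stem cells (mESCs). They were taken by name, as 7 of the 56196 genes in the count files, and all 7 were found there. Read counts per gene were taken from 3 wild-type (WT) and 3 Mettl3 knockout (KO) libraries. Mettl3 encodes the enzyme that places m6A on mRNA. Both genotypes were lines of an earlier publication, grown with serum and LIF, and the strain of the lines and the number of KO clones are not given in the sources used here. The other data set was the list of N6-methyladenosine (m6A) sites of WT mESCs, made by miCLIP2, which reads m6A at the point where an antibody was crosslinked to RNA. It is a single list for all WT replicates. The labels do not say that the 3 replicates of a genotype came from separate cultures, so p-values measure only the spread between these samples.

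A small and changing share of mESCs passes through a state that resembles the 2-cell (2C) embryo, in which genes of zygotic genome activation are transcribed. Zscan4 proteins carry a SCAN domain and zinc fingers, are clustered in many copies on chromosome 7, and are known for telomere lengthening and genome stability in mESCs. Tcstv genes form a second cluster, on chromosome 13, and have been linked to telomere length. Zfp352 is a zinc finger gene of the early embryo, and the transcription factor Dux is the best known activator of the whole programme.

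The start regions of the Zscan4 genes show how alike the copies are, and that of Zfp352 how different it is. RefSeq promoters (GRCm38.p6) were found for 4 of the 7 genes, namely Zscan4c, Zscan4d, Zscan4f and Zfp352, and only bases upstream of the start are shown. Capitals mark 3 motifs, searched on both strands of the 250 bases before the start. The first, TATAAA, is the box bound by TBP, a general initiation factor. The second, TGATTCAAT, is the first part of the motif known for mouse Dux. The third, TAATCC, is the core bound by bicoid-type homeodomain factors. No match overlapped another.
Zscan4c: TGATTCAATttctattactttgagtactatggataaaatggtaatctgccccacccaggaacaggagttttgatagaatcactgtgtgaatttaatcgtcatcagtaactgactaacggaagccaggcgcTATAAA
Zscan4d: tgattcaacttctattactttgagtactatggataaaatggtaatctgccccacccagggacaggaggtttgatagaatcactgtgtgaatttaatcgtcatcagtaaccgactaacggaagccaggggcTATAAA
Zscan4f: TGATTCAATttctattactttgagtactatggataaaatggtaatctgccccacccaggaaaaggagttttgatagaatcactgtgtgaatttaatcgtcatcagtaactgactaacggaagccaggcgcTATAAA
Zfp352: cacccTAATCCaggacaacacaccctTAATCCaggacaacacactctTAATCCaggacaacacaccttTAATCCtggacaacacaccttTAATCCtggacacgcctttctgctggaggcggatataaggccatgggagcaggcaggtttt
The Zscan4 stretches lie at chr7:11005561-11005696 (+ strand), chr7:11166208-11166343 (- strand) and chr7:11397754-11397889 (+ strand), and that of Zfp352 at chr4:90218670-90218819 (+ strand).

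Over 136 aligned bases, Zscan4c and Zscan4f differed at 1 base (99.3% identity), Zscan4c and Zscan4d at 5 (96.3%), and Zscan4d and Zscan4f at 6 (95.6%). TATAAA stood in all 3 Zscan4 promoters, ending 49, 60 and 26 bases before the start of Zscan4c, Zscan4d and Zscan4f. It was found in 12.4% of 32851 RefSeq promoters. TGATTCAAT stood in Zscan4c and Zscan4f, 1 base change took it out of Zscan4d, and 36 promoters (0.110%) held it. Zfp352 had neither, and held TAATCC 9 times in a tandem repeat, 5 of them in the 150 bases shown and the other 4 further upstream. TAATCC was found in 6.25% of promoters, and no other promoter had as many copies. A match is a description of the letters and says nothing of binding.

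The copies also limited what could be counted. The longest transcripts of the 4 Zscan4 genes shared 95.5% to 97.9% of aligned bases, and Tcstv1 and Tcstv3 shared 84.3%. Reads of 84 bases that map to several places were not counted, so each copy was measured only where its sequence is its own. Of all 84-base windows of the transcript, 64.0% occurred once in the genome and transcripts for Zscan4d, 53.4% for Zscan4a, 23.7% for Zscan4c and 8.53% for Zscan4f. The share was 71.0% for Tcstv1, 87.6% for Tcstv3 and 98.0% for Zfp352. Counts of single Zscan4 copies are therefore uncertain, and the sum was judged beside them. The reference genome is that of C57BL/6J, and whether the lines carry the same copies was not tested.

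In GENCODE M21 (GRCm38), Zscan4a is annotated as an unprocessed pseudogene and the other 6 as protein-coding. Zscan4a (ENSMUSG00000110097.1, 4 exons) lies at chr7:10794242-10799057 on the - strand and Zscan4c (ENSMUSG00000054272.6, 4 exons) at chr7:11005745-11010547 on the + strand. Zscan4d (ENSMUSG00000090714.10, 4 exons) lies at chr7:11161374-11166159 on the - strand and Zscan4f (ENSMUSG00000070828.10, 4 exons) at chr7:11397915-11402318 on the + strand. Tcstv1 (ENSMUSG00000096284.2, 1 exon) is at chr13:119893388-119894785 on the - strand and Tcstv3 (ENSMUSG00000095821.2, 2 exons) at chr13:120316878-120318178 on the + strand. Zfp352 (ENSMUSG00000070902.5, 2 exons) is at chr4:90218820-90225702 on the + strand.

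The libraries held 22746733 to 27254245 gene counts each. Levels are counts per 1000000 gene counts (CPM), scaled by TMM factors. A gene was called where the edgeR quasi-likelihood test over 15731 genes gave an adjusted p up to 0.01, and log2 fold changes are KO over WT with standard errors. Mettl3 itself had 560, 698 and 612 counts in the WT libraries against 462, 669 and 457 in the KO libraries, a log2 fold change of -0.50 ± 0.14 (adjusted p = 0.0134, or 0.00281 with the replicate number as a block). Gene counts do not show which part of it was deleted, so they do not check the labels. The 10 mESC markers summed to 4716 to 4982 CPM in WT and 3523 to 3560 in KO, and 6 of them had a negative log2 fold change. The fall of the sum was mainly that of Dppa5a (means 957 and 298 CPM) and Tdgf1 (903 and 229). Pou5f1 (-0.26 ± 0.14), Sox2 (0.01 ± 0.11) and Nanog (-0.07 ± 0.12) were not called (lowest adjusted p = 0.165).

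All 7 genes were at the bottom of the expression range, and all 7 had a lower mean CPM in KO than in WT. Summed, they took 8.50, 5.94 and 2.88 CPM in the WT libraries and 1.99, 3.88 and 1.29 in the KO libraries. KO replicate 2 lay above WT replicate 3, so the groups overlapped. The means were 5.77 ± 2.81 and 2.39 ± 1.34 CPM (SD, n = 3), a difference of -3.38 CPM (two-sided exact permutation p = 0.2, where 3 against 3 libraries cannot go below 0.1). Within each replicate number WT was higher, by 4.27-fold, 1.53-fold and 2.23-fold. In bulk RNA, fewer cells in the 2C-like state and less RNA per such cell cannot be told apart.

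Zscan4a was the only one of the 7 called in the main test. It had 60, 40 and 24 counts in WT against 15, 21 and 8 in KO. These are too few KO counts to pass the filter on the KO libraries alone, so it was tested through its WT counts. Every KO library lay below every WT library, as in 26.9% of all genes tested (56.1% did not overlap in either direction). Its level fell from 1.83 ± 0.890 to 0.534 ± 0.214 CPM (SD, n = 3), a log2 fold change of -1.76 ± 0.43 (adjusted p = 0.00786). Of the 7 genes, 4 passed the filter on low counts (the Zscan4 copies), 1 of these 4 was called lower and 0 higher, also in DESeq2 and at an unadjusted p under 0.05. Of all genes tested, 29.7% were called, 12.6% lower and 17.1% higher. The call of Zscan4a rested on single libraries, since its adjusted p was 0.0376 without WT replicate 1, and 0.0256, 0.0149 and 0.0345 without KO replicates 1, 2 and 3. It was 0.0132 with scaling by library size only.

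Zscan4c, the copy best known as a marker of the 2C-like state, had 35, 34 and 13 counts in WT against 9, 28 and 12 in KO. Zscan4d had 48, 38 and 11 counts in WT against 12, 39 and 9 in KO. In both, replicate 1 fell steeply and KO replicate 2 stood within the WT range, so the groups overlapped. The log2 fold changes were -1.01 ± 0.46 (adjusted p = 0.0955) for Zscan4c and -0.97 ± 0.57 (adjusted p = 0.191) for Zscan4d, and neither was called. Zscan4f, with the fewest windows of its own, had 12, 14 and 2 counts in WT against 6, 18 and 4 in KO. Both groups had 28 counts in all, and its log2 fold change was -0.25 ± 0.64 (adjusted p = 0.765).

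**Figure D1:**
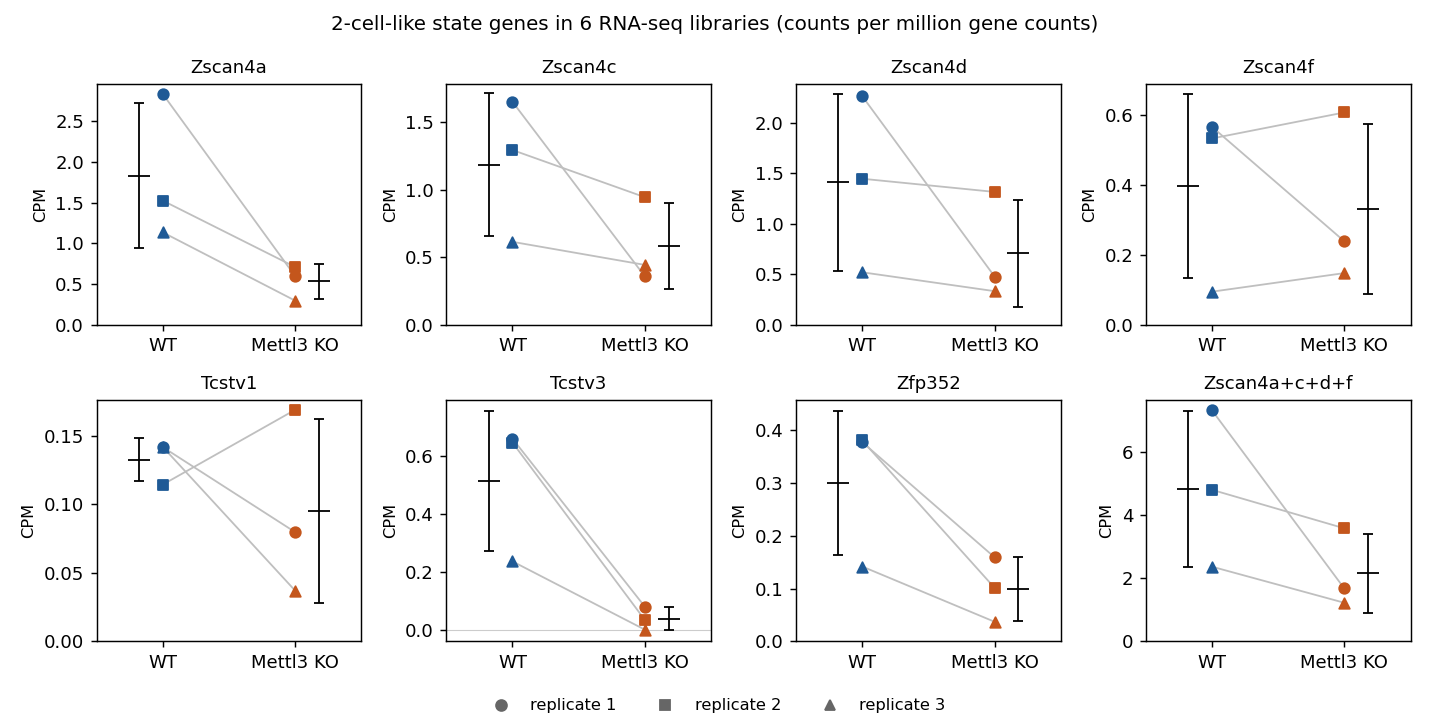
CPM of each gene, and of the sum of the 4 Zscan4 genes, in the 3 WT (blue) and 3 Mettl3 KO (orange) libraries, with the mean and SD in black and grey lines joining libraries of the same replicate number (y axes start at or just under 0 and differ between panels). Zscan4a and Tcstv3 are the panels in which every KO library lies below every WT library, as in 26.9% of all genes tested. WT replicate 3 (triangle) is the lowest WT library in all panels but that of Tcstv1.

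The sum of the 4 Zscan4 genes was 155, 126 and 50 counts in WT against 42, 106 and 33 in KO. That is 4.83 ± 2.48 against 2.16 ± 1.25 CPM (SD, n = 3), with KO replicate 2 (3.58 CPM) above WT replicate 3 (2.36 CPM). The log2 fold change was -1.15 ± 0.46 and was not called (adjusted p = 0.0614). Over all genes tested, libraries of the same number deviated together, most weakly for replicate 1. In this sum replicate 1 did not. WT replicate 1 (7.32 CPM) lay above the WT mean and KO replicate 1 (1.67 CPM) below the KO mean. With the replicate number as a block the sum was called lower, at -1.14 ± 0.29 (adjusted p = 0.00282), in a fit that called 20.0% of all genes lower. The same 4 genes were not called singly under the block except Zscan4a (-1.72 ± 0.34, adjusted p = 0.000344). In DESeq2 the sum had an adjusted p of 0.0240. Leaving out single libraries gave log2 fold changes of -1.73 to -0.74 without a call, and the value nearest to 0 came without WT replicate 1.

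Over all 9 annotated Zscan4 copies, with Zscan4b, Zscan4e and 3 copies named as pseudogenes, the counts were 243, 202 and 89 in WT and 66, 184 and 51 in KO. The order of the libraries was that of the 4-gene sum. The log2 fold change was -1.12 ± 0.45 (adjusted p = 0.0650), or -1.16 ± 0.27 with the block (adjusted p = 0.00155). Without Zscan4a the sum of the other 3 members was -0.87 ± 0.51 (adjusted p = 0.185), and -0.87 ± 0.32 with the block (adjusted p = 0.0302). This was the sole 3-gene sum that was not called under the block.

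Zscan4a made up 38.7, 31.7 and 48.0% of the counts of the 4 Zscan4 genes in WT, and 35.7, 19.8 and 24.2% in KO. The ranges overlapped, and the means of 39.5 ± 8.15% and 26.6 ± 8.21% gave a two-sided exact permutation p of 0.2 (SD, n = 3, libraries not paired). Within each replicate number the share was lower in KO.

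Tcstv3 showed the steepest drop in counts. It had 14, 17 and 5 counts in WT against 2, 1 and 0 in KO, so that all KO libraries were at or under a floor of 3 counts. Its level in WT was 0.515 ± 0.241 CPM (SD, n = 3), and against that floor of 3 counts per library it was at least 4.66-fold lower in KO. Tcstv1 was at the floor in WT, with 3 counts in each library, and had 2, 5 and 1 counts in KO, so no fold is given. Both genes failed the filter on low counts. In the fit without a filter, which called 8.48% of 31057 genes lower, Tcstv3 was called lower (adjusted p = 8.07e-06) and Tcstv1 was not (adjusted p = 0.772). In some filtered fits that left out 1 library, Tcstv3 passed the filter through its WT counts. Its adjusted p was 0.000859 without WT replicate 3 and 0.00618 without KO replicate 1, both calls. It was 0.0136 without KO replicate 2 and 0.0111 without KO replicate 3, neither a call.

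The sum of Tcstv1 and Tcstv3 was 17, 20 and 8 counts in WT against 4, 6 and 1 in KO. The groups did not overlap, as in 56.1% of all genes tested (26.9% with KO below WT). The levels were 0.647 ± 0.234 and 0.133 ± 0.0859 CPM (SD, n = 3), and a two-sided exact permutation test gave p = 0.1, the smallest it can give. WT was higher by 5.04-fold and 3.76-fold within replicate numbers 1 and 2, and in replicate 3 the KO library had 1 count, under the floor. Without a filter the log2 fold change was -2.21 ± 0.54 (adjusted p = 0.000375). In filtered fits that left out 1 library, the filter changed as well. The adjusted p was 0.0227, 0.0125 and 0.0278 without KO replicates 1, 2 and 3, and 0.00297 (a call) without WT replicate 3. With all 5 annotated copies (28, 37 and 11 counts in WT, 9, 12 and 4 in KO) the sum passed the filter, at -1.82 ± 0.48 (adjusted p = 0.0108), or -1.82 ± 0.38 with the block (adjusted p = 0.000594).

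Zfp352, with 98.0% of its 84-base windows found once, had 8, 10 and 3 counts in WT against 4, 3 and 1 in KO. KO replicate 1 lay above WT replicate 3 in CPM, and the means were 0.300 ± 0.137 and 0.0991 ± 0.0612 CPM (SD, n = 3). It failed the filter, and without a filter it was not called (adjusted p = 0.0835). At 21 counts in WT against 8 in KO, a change of this gene could not be resolved.

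Levels between genes were compared per length, as CPM per kilobase of exon. In WT the order was Zscan4a (0.803 ± 0.390), Tcstv3 (0.661 ± 0.310), Zscan4d (0.621 ± 0.384), Zscan4c (0.522 ± 0.232), Zscan4f (0.203 ± 0.134), Zfp352 (0.132 ± 0.0602) and Tcstv1 (0.0948 ± 0.0113). The ranges of all neighbours in that order overlapped. In KO the order was Zscan4d (0.312 ± 0.234), Zscan4c (0.256 ± 0.139), Zscan4a (0.234 ± 0.0938), Zscan4f (0.169 ± 0.124), Tcstv1 (0.0680 ± 0.0481), Tcstv3 (0.0485 ± 0.0513) and Zfp352 (0.0436 ± 0.0269), all SD with n = 3. Zscan4a and Tcstv3 led the WT order and stood in the third and the sixth place in KO.

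The order within the Zscan4 genes depended on the length used. Divided by the 84-base windows that occur once (counted in kilobases) in place of exon length, Zscan4f was highest in WT (2.67 ± 1.77 CPM), before Zscan4c (2.28 ± 1.01), Zscan4a (1.56 ± 0.758) and Zscan4d (1.01 ± 0.624). The low counts of Zscan4f thus went with the few windows that set it apart. All these ranges overlapped, so no order of the Zscan4 copies held beyond the spread between libraries.

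**Figure D2:**
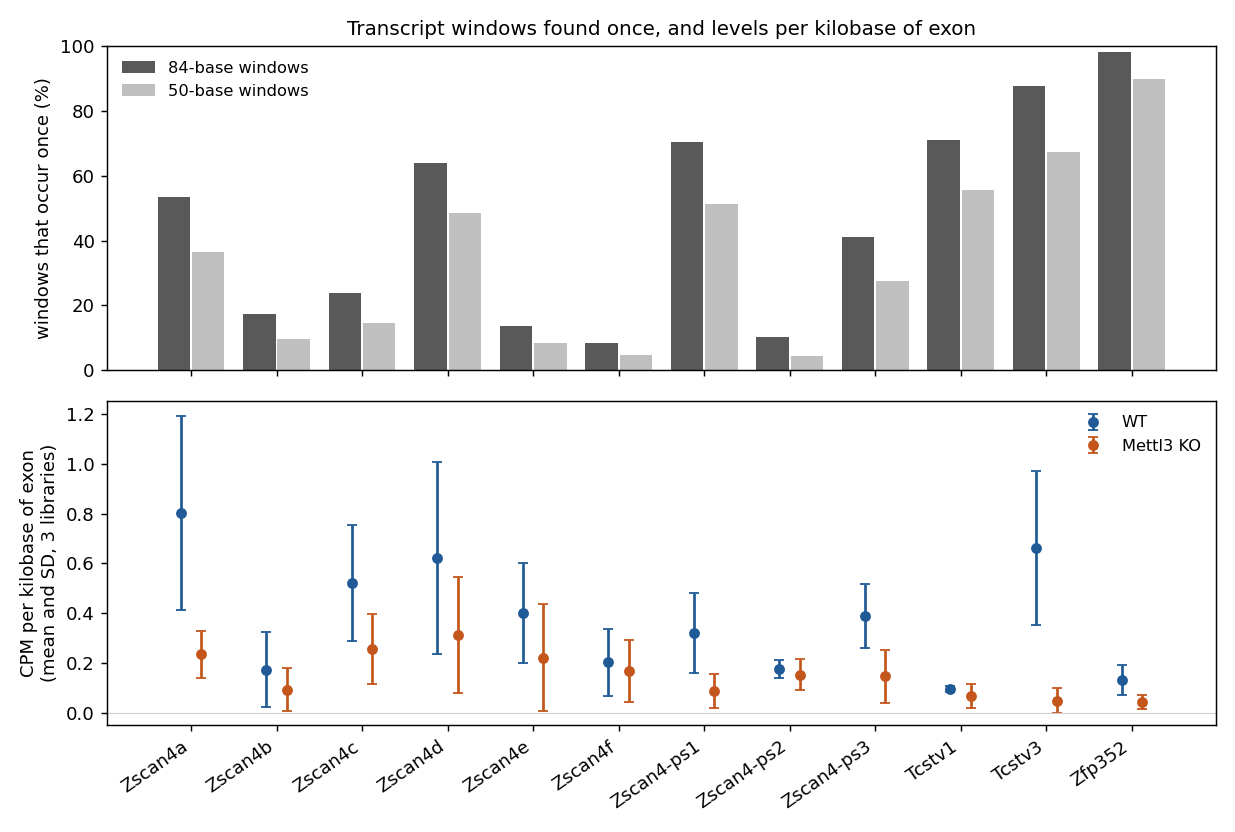
The upper panel shows the percent of 84-base (dark) and 50-base (light) windows of the longest transcript that occur once, for the 9 Zscan4 copies, both Tcstv members and Zfp352, and the lower panel shows the mean and SD of CPM per kilobase of exon in 3 WT (blue) and 3 KO (orange) libraries. Zscan4f has the smallest share of windows of its own among the 7 genes (8.53%), and Zfp352 the largest (98.0%).

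Within each genotype the same libraries were often at the end of the range. WT replicate 3 was the lowest WT library for 6 of the 7 genes, and KO replicate 2 the highest KO library for 5 of the 7. Over 21023 genes with at least 10 counts in all, these shares were 36.4% and 38.6%. The highest WT library exceeded the lowest by 2.50-fold for Zscan4a, 4.36-fold for Zscan4d and 3.10-fold for the Zscan4 sum, and the highest KO library exceeded the lowest by 2.93-fold for that sum. The spread within a genotype thus exceeded the 2.24-fold difference between the means of the Zscan4 sum.

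The list of other 2C-associated genes holds 51 genes found in the files, of which 11 had no count in any library and 13 passed the filter. It includes the 5 Zscan4 copies beside the members, and many genes in it belong to families of near-identical copies whose counts are uncertain. Leaving out Zscan4 and Tcstv copies, 24 genes had at least 10 counts, 20 of them with a lower mean in KO (50.9% of all genes with that many counts). WT replicate 3 was the lowest WT library for 17 of these 24 and KO replicate 2 the highest KO library for 18.

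Of the 13 tested, 3 were called lower and 2 higher, against 12.6% and 17.1% of all genes, with a median log2 fold change of -1.04 (all genes -0.02). Pramef25, of a family expressed in the germline and early embryo, had 33, 31 and 14 counts in WT against 1, 6 and 5 in KO (-2.92 ± 0.52, adjusted p = 0.00130). Tmem92, a membrane protein gene transcribed in 2C-like cells, had 52, 35 and 18 counts in WT against 4, 13 and 5 in KO (-2.51 ± 0.51, adjusted p = 0.00271). Gm5662 had 42, 33 and 14 counts in WT against 9, 11 and 13 in KO (-1.68 ± 0.43, adjusted p = 0.00921). In these 3 genes no KO library reached a WT library in CPM, as in 26.9% of all genes tested, though Gm5662 came near it in replicate 3. None of the 3 had enough KO counts to pass the filter on the KO libraries alone. Without a filter, 40 genes of the list were tested. Of these, 13 were called lower and 3 higher, against 2635 and 3771 of all 31057 genes, with a median of -1.32 (all genes 0.03).

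With the replicate number as a block, 6 of the 13 were called lower, in the fit that called 20.0% of all genes lower (12.6% without the block). The 3 added were Usp17lc (-1.86 ± 0.39, adjusted p = 0.000634), Gm8994 (-1.43 ± 0.43, adjusted p = 0.00958) and Zscan4-ps3 (-1.42 ± 0.42, adjusted p = 0.00833), named here after their values were seen. These 3 too had too few KO counts to pass the filter on the KO libraries alone. Usp17lc is a copy of a deubiquitinase family. The 5 Usp17l genes summed to 4.30, 4.04 and 1.23 CPM in WT and 1.47, 1.92 and 0.850 in KO, and overlapped through WT replicate 3 (two-sided exact permutation p = 0.3). The number called lower moved with 1 library. It was 1 without WT replicate 1, KO replicate 1 or KO replicate 3, and 11 without WT replicate 3.

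The 2 genes called higher in the main test went the other way. Pramef12, a Pramef gene that was more abundant here than any of the 7, had 554, 807 and 767 counts in WT against 3375, 3128 and 3260 in KO (+1.95 ± 0.14, adjusted p = 1.13e-05). Duxbl1, a Dux-like gene with near-identical copies, had 6, 12 and 8 counts in WT against 33, 42 and 29 in KO (+1.74 ± 0.33, adjusted p = 0.00194). In both, every KO library lay above every WT library. Of all genes tested, 56.1% did not overlap in either direction, 26.9% with KO below WT. Duxbl1 had too few WT counts to pass the filter on the WT libraries alone.

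**Figure D3:**
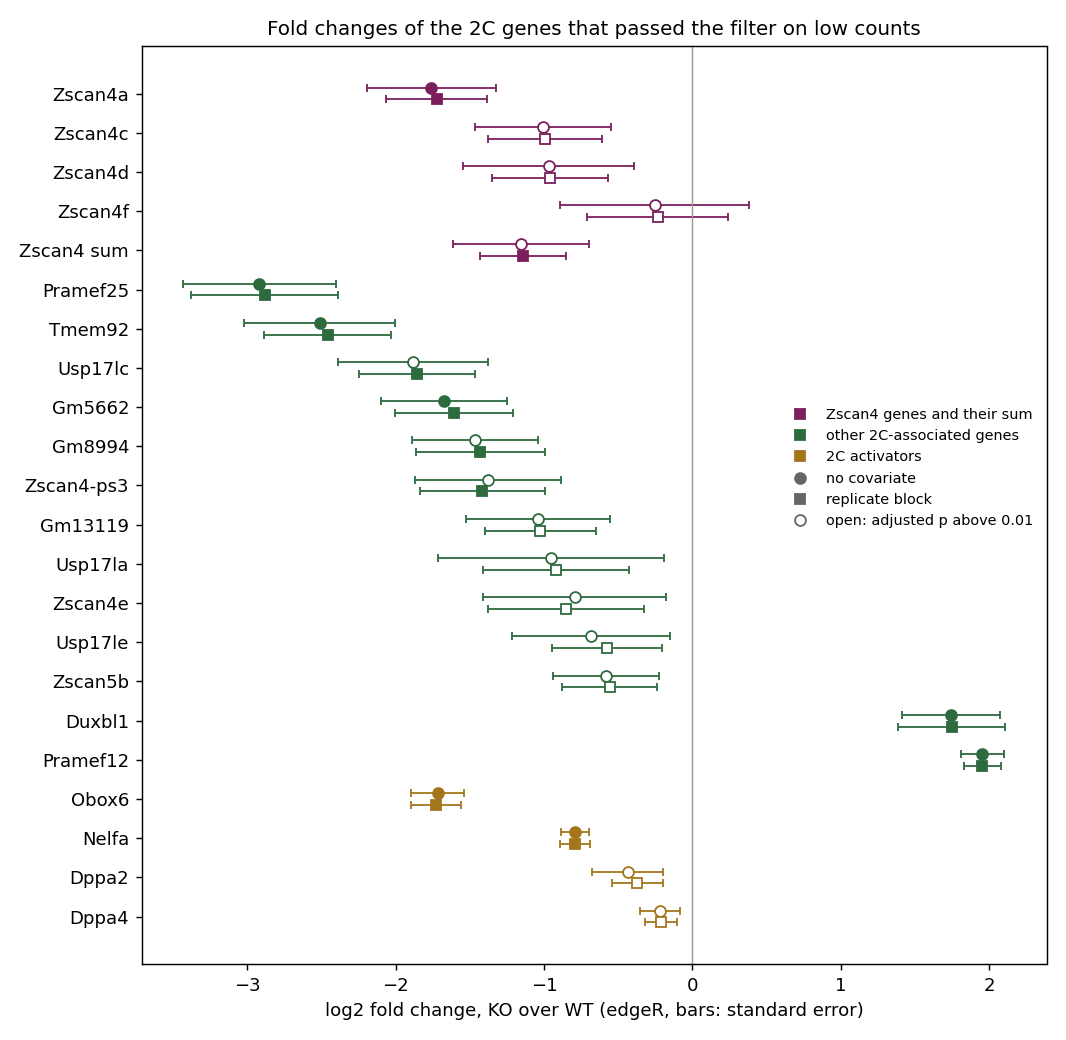
Log2 fold change, KO over WT, with its standard error for the 4 Zscan4 genes that passed the filter, their sum, 13 other 2C-associated genes and 4 activators, from the edgeR fit without a covariate (circles) and with the replicate block (squares). Filled symbols have an adjusted p of at most 0.01, as Zscan4a does in both fits and the Zscan4 sum under the block only, and Pramef12 and Duxbl1 are the genes to the right of 0.

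Dux itself (Duxf3 in the files) and Gm4981 were at 0 counts in all 6 libraries, as were Obox1, Obox2, Obox3 and Obox5. These genes too belong to repeated families, and how much of their sequence occurs once was not computed. Dux was thus not detected, and whether it was transcribed could not be told. The other 4 activators were tested, and 2 were called lower (12.6% of all genes tested). Obox6, an oocyte and embryo homeodomain gene, had 311, 415 and 332 counts in WT against 100, 167 and 119 in KO. It was called lower, at -1.72 ± 0.18 (adjusted p = 7.03e-05), with every KO library below every WT library, as in 26.9% of all genes tested. Nelfa, a subunit of the negative elongation factor that has been described as a driver of the 2C-like state, had 1655, 2116 and 1644 counts in WT against 1177, 1334 and 1210 in KO and was called lower (-0.79 ± 0.09, adjusted p = 0.000143).

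Dppa2 and Dppa4, which act together upstream of Dux, were not called. Dppa2 had 280, 391 and 575 counts in WT against 334, 412 and 367 in KO (-0.44 ± 0.24, adjusted p = 0.160). Dppa4 had 850, 1218 and 1153 counts in WT against 990, 1110 and 1200 in KO (-0.22 ± 0.13, adjusted p = 0.201). WT replicate 3, the lowest WT library in the Zscan4 sum, was the WT library with the most Dppa2 counts.

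**Figure D4:**
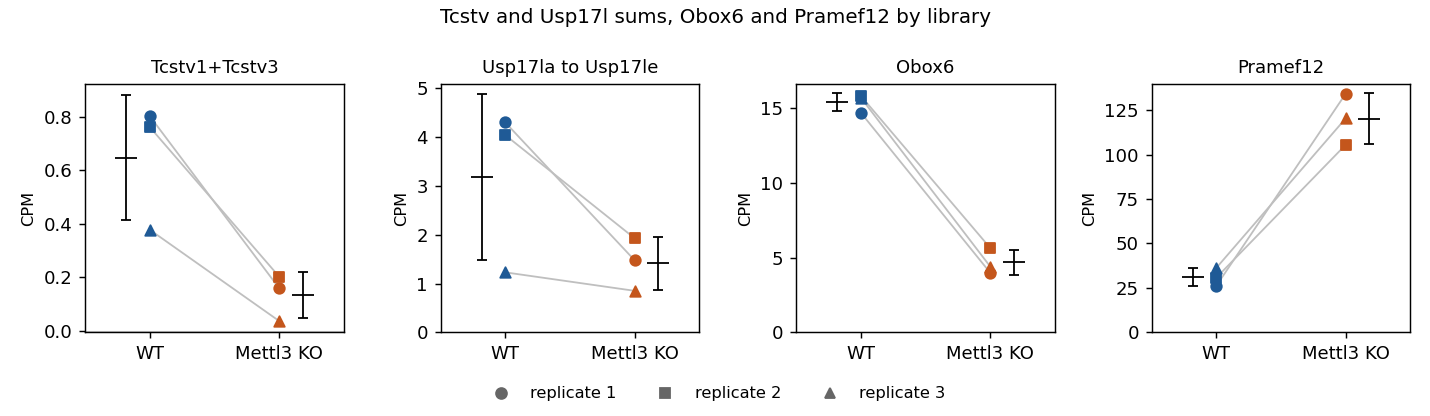
CPM of the Tcstv sum, the sum of 5 Usp17l genes, Obox6 and Pramef12 in 3 WT (blue) and 3 KO (orange) libraries, with the mean and SD in black and grey lines joining the same replicate number (y axes start at or just under 0). Obox6 varied little within a genotype and was lower in every KO library, Pramef12 was higher in every KO library, and WT replicate 3 lies near the KO libraries in the Usp17l panel.

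The 28 genes listed as repressors of the 2C programme showed no common direction. Of these, 6 were called lower and 6 higher, against 12.6% and 17.1% of all genes tested, or 4 and 8 with scaling by library size only. The median log2 fold change was -0.01 (0.09 with that scaling). That scaling moved the median of all genes from -0.02 to 0.08 and their calls from 1982 lower and 2687 higher to 1199 and 2937. Among the lower genes were Hdac1, a histone deacetylase (-0.95 ± 0.16), the RNA-binding protein gene Lin28a (-0.90 ± 0.16), Sumo2 (-0.85 ± 0.21), which encodes a SUMO protein, and Uhrf1 (-0.66 ± 0.13) and Dnmt1 (-0.48 ± 0.11), which maintain DNA methylation. The higher genes were Ring1 (+0.94 ± 0.16) and Mga (+0.53 ± 0.11) of a Polycomb complex, the nucleolin gene Ncl (+0.86 ± 0.17), the histone chaperone genes Chaf1a (+0.70 ± 0.13) and Daxx (+0.53 ± 0.12), and the H3K9 methyltransferase gene Setdb1 (+0.61 ± 0.10). Among adjusted p-values of these 12 the highest was 0.00754, of Sumo2.

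Markers of other cell types were measured beside these results. Feeder fibroblast markers (8 genes) summed to 9.45 to 13.2 CPM in WT and 10.6 to 11.8 in KO, with 2 of them at 3 counts or fewer in all libraries. Primitive endoderm markers (7 genes) summed to 7.47 to 10.1 CPM in WT and 33.9 to 46.3 in KO, and trophoblast markers (7 genes) to 63.8 to 95.5 in WT and 97.3 to 130.6 in KO. The endoderm rise was nearly all Dab2 (means 1.04 and 34.6 CPM). Pdgfra (1.34 and 2.71) and Cubn (0.230 and 0.634) also had higher means in KO, and Gata4 (4.24 and 1.40) and Gata6 (0.956 and 0.884) lower ones. Tfap2c was the largest part of the trophoblast sum (means 61.3 and 83.9 CPM). It was not called in the main test, but was called higher with the replicate block (+0.48 ± 0.11, adjusted p = 0.00154). No marker was at 0 in all libraries. The filter left 3, 5 and 4 genes of these lists. In the first 2 lists 1 gene each was called lower (Pdgfrb, Gata4) and 1 higher (Thy1, Dab2), and Gata3 was the gene called higher in the third. Of all genes tested, 12.6% were called lower and 17.1% higher. Of the 10 mESC markers, Tdgf1 (-1.98 ± 0.18), Dppa5a (-1.68 ± 0.14) and Utf1 (-1.25 ± 0.16) were called lower. The part of these differences in the lower 2C counts was not tested.

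None of the 7 genes held an m6A site in the WT mESC list of 25456 sites. The same was true of the other Zscan4 and Tcstv copies, of whole genes in place of exons, and of the list made from 1 µg of heart RNA. The transcripts are not short of the sequence in which m6A is placed. The DRACH motif (D is any base but C, R is A or G, H is any base but G) occurred 49, 48, 50 and 44 times in the longest transcripts of Zscan4a, Zscan4c, Zscan4d and Zscan4f, 26 and 18 times in Tcstv1 and Tcstv3, and 76 times in Zfp352.

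The absence of sites has to be read against the low levels. Of 2904 protein-coding genes in the range of WT levels of the 7 genes (0.133 to 1.83 CPM), 48 held a site, or 1.65% (Wilson 95% interval 1.25 to 2.18%). Of 11280 protein-coding genes above that range that were tested, 57.5% did (56.6 to 58.4%). Sites were thus rare at this level, but present. The list gives no read depth, and reads shared by copies were not used in it either. Whether these 7 transcripts carry m6A could not be told from it. The intervals cover counting error only.

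Sites were present in more abundant genes of the programme. Among the 51 other 2C-associated genes, Pramef12 alone held sites, at chr4:144394617 and chr4:144394989 (m6Aboost scores 0.792 and 0.678 on a scale up to 1). Obox6 held 2, at chr7:15833646 and chr7:15834502 (0.833 and 0.510). These 4 sites are on the - strand. Dppa2, Dppa4 and Nelfa held 1 each, at chr16:48318919 (0.689), chr16:48291083 (0.655) and chr5:33898415 (0.509). All 7 sites lie in exons. Genes with sites thus included Obox6 and Nelfa, which were lower in KO, and Pramef12, which was higher. Of the 28 repressors, 24 held sites, 139 in all, against 57.5% of tested protein-coding genes above the WT levels of the 7 genes.

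The genes most like the 7 in their levels were sought among 12079 genes averaging 50 counts or more. The highest Pearson correlations of log2 CPM with the summed 7 genes over the 6 libraries were those of Mtdh (0.993), Msi1 (0.989), Wdr44 (0.989), Prkaa1 (0.988) and Tmem184b (0.987). Msi1, for example, had 94.2, 91.1 and 60.7 CPM in WT and 55.1, 70.5 and 43.9 in KO. By deviations from the mean of each genotype, which leave the genotype difference out, they were Dock1 (0.999), Nek7 (0.996), Rock1 (0.995), Tulp4 (0.993) and Dst (0.993). Dock1 had 153, 136 and 108 CPM in WT and 126, 155 and 107 in KO. These are the largest of many values over 6 points that share library depth and scaling, and are given as a description.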

How the data were processed

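The deposited data used are read counts per gene for 3 WT and 3 KO mESC samples and the m6A site list of WT mESCs. The counts are raw and were made by the authors from 84-base single-end reads, mapped to GRCm38 with STAR 2.6.1b and counted on the reverse strand per GENCODE M23 gene with HTSeq 0.12.4. Reads that were not unique (13.9 to 15.2% of the lines) were not counted. The deposited m6Aboost score of each mESC site was computed by the authors on PureCLIP peaks found in at least 2 replicates, from uniquely mapped reads. The deposited score of the 1 µg heart list has no stated scale, and only its positions were used. The KO miCLIP2, HEK293T and other heart samples were not used here.

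Lines that name no gene were left out. These were 18.9 to 22.6% (WT) and 17.6 to 18.2% (KO) in no feature, 3.76 to 4.67% not aligned and 0.813 to 0.988% ambiguous. Of 56196 genes, 55154 had an entry in GENCODE M21, used for symbols, exons and lengths. Tests used R 4.3.3 with edgeR 4.0.16 (filterByExpr, TMM, glmQLFit, glmQLFTest, no covariate) and Benjamini-Hochberg adjustment over all genes tested. In summed rows, copies were added before the fit. Only the filtered edgeR fit without a covariate was run on simulated counts, and its result is not given here. The fits with the block, without a filter, of summed rows and in DESeq2 were not run on them. WT and KO libraries of the same number had correlated deviations from the group means (r = 0.161, 0.503 and 0.351 over 15731 genes). Pairs of unlike number had r from -0.382 to 0.114. The numbers were taken as pairing the samples. A replicate block is given where it changed a call of Mettl3, the members, their sums or the other 2C-associated genes. It also changed calls in other lists, most of them not given by gene. With the block, 7 repressors were called lower and 8 higher. Called higher were 2 primitive endoderm, 2 trophoblast and 1 of the mESC markers. That fit called 3143 of all genes lower and 3694 higher. Windows were matched exactly, on both strands, to the assembled chromosomes and to transcripts of other genes. Python 3.11.15, NumPy 2.4.6, pandas 2.3.3, SciPy 1.17.1 and Matplotlib 3.10.9 were used.

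Named genes are the 7 members, Mettl3, genes of the lists, and the 5 genes most like the members by each measure. From the lists, genes called or reaching 50 counts in a group mean were planned (at most 30, by mean count). This was not kept throughout. Some genes named, such as Gata6 and Cubn, met neither condition, and some with more counts are not named. The members and lists were chosen with earlier results of these data known. Results were also computed with DESeq2 1.42.0, with size factors of that tool in edgeR, library size only, no filter, at least 10 counts in every library, an adjusted p of 0.05, the block, leaving out each library, other sums of copies, other lengths, windows of 50 bases, sites in whole genes or with a score of at least 0.7, and heart sites. The block combined with no filter, and with other sums, was added after seeing the data. Of the repressors called lower, 1 is not reported here by name.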

Additional observations from a re-analysis of the deposited data

How the results depend on the processing

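The direction of Zscan4a, Zscan4c, Zscan4d and the Zscan4 sum was lower in KO under every alternative run. Zscan4f turned to 0.03 without WT replicate 1, 0.02 without WT replicate 2 and 0.10 without KO replicate 3, with no call, and its range when single libraries were left out was -1.05 to 0.10. The call of Zscan4a was lost with library size only (-1.65), and leaving out single libraries gave -2.02 to -1.31. The Zscan4 sum was called without a filter (-1.12, adjusted p = 0.000410), with the replicate block (-1.14), with both (-1.11), and with the block for all 9 copies (-1.16) or without Zscan4c (-1.19), Zscan4f (-1.25) or Zscan4d (-1.21). Its adjusted p over 24 alternatives ran from 8.45e-06 to 0.258. The replicate block changed no other call of a member. The Tcstv sum, called in the fit without a filter, was not called in a filtered fit with all annotated copies (-1.82). In filtered fits that left out single libraries it ranged from -2.69 to -1.80, and without WT replicate 1 or 2 it failed the filter. Filter and copies, or filter and library, changed together there.

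Of the members, 0 were called lower with library size only or when 10 counts were required in each library (no member met this), and 2 without a filter, also with the block. Leaving out single libraries gave 0 to 2, and without WT replicate 3 these were Zscan4a and Tcstv3. Of the other 2C-associated genes, 13 were called lower without a filter, 0 with at least 10 counts in every library (where 1 was called higher), 6 at an adjusted p of 0.05, 6 with the block and 12 with the block and no filter. Leaving out single libraries gave 1 to 11 lower and 1 to 2 higher, 5 to 12 called repressors (fewest without WT replicate 1), 3 to 5 markers of other cell types (3 without WT replicate 1, KO replicate 1 or KO replicate 3), and 2761 to 5412 of all genes. Markers of other cell types called numbered 9 with the block and no filter. Of all genes, 7336 were called at an adjusted p of 0.05 and 7644 with the block and no filter. With 50-base windows, 27.1% of the windows of the 4 Zscan4 genes occurred once (39.0% with 84 bases), and 75.9% of those of the other 3 members (88.3%). The causes of these shifts were not tested.

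Depth limits all of these values. Summed over 3 libraries, the 7 genes had 397 counts in WT against 200 in KO, and 3 counts or fewer in a library cannot be told from 0.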
